A study of Mus musculus with 80 samples.

Results

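The tiles described here are autosomal windows of 500 bp in which reduced representation bisulfite sequencing (RRBS) read the wild-type ESC line TET WT well enough in 4 libraries, 2 from serum and 2 from 96 h in 2i. A tile entered with 20 or more calls and 3 or more cytosine positions in each of the 4 libraries. This left 64515 tiles of the 372599 autosomal tiles with a call in any of the 4. A call is 1 read of 1 cytosine as methylated or unmethylated, and the methylation of a tile is the percent of its calls that were methylated.

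The series holds 80 samples of mouse ESCs, 51 of them RRBS. TET WT cells have the background strain label C57/129/FVB and the genotype label Wild-type. They were grown in serum with LIF, or moved for 48, 96 or 168 h to 2i, which is serum-free N2B27 medium with LIF, the MEK inhibitor PD0325901 and a GSK3 inhibitor. TET TKO, labelled TET1/2/3-/- on the same background, and E14, another wild-type line, serve as comparisons and went through the same media. There are 2 libraries per group except for TET WT at 168 h, which has 1. Nothing in the labels says that they came from separate cultures, so the spread between libraries may be technical. The p-values of single tiles rest on the number of calls and on a spread between libraries that was pooled over tiles. They hardly measure the spread of the tile's own libraries. No RNA from the TET lines was analysed here, so their ESC identity was not checked against marker genes, nor was the deletion checked.

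DNA methylation in mammals sits mainly on CpG dinucleotides. It is copied to the new strand after replication by DNMT1, which UHRF1 brings to hemimethylated DNA, and it is laid down anew by DNMT3A and DNMT3B. TET enzymes oxidise methylated cytosine, which can lead to its loss. ESCs in serum carry high methylation, and 2i moves them towards a naive state with low methylation, while most CpG islands are unmethylated in both. RRBS cuts the genome at CpG-rich sites, so it samples CpG islands densely and the rest of the genome thinly.

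The serum libraries held 16619345 and 14194069 calls, and the 96 h libraries 13147694 and 12723857. The median tile had 93 and 81 calls in serum and 76 and 75 at 96 h. On mitochondrial DNA, 0.113% and 0.375% of calls were methylated in serum and 0.229% and 0.122% at 96 h (exact binomial 95% bounds from 0.0600% to 0.495% over the 4 libraries). These intervals cover counting error only. Across tiles, serum libraries correlated with each other at r = 0.979 and 96 h libraries at r = 0.960, with no p because tiles are not independent.

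Methylation fell across the tiles between serum and 96 h, and the fall was larger than the gap between replicates. The mean tile stood at 29.6% and 29.7% in the serum libraries and at 21.1% and 20.98% in the 96 h libraries. The group means were 29.7% ± 0.04 and 21.02% ± 0.07 (SD, n = 2), a change of -8.63 points. The size depends on how tiles are weighted: it was -5.12 points in the 38394 tiles with 50 or more calls per library, and -2.69 as the share of all calls in the tiles, where deeply read tiles count most. Both 96 h libraries lay below both serum libraries. An exact two-sided permutation of the 4 labels gave p = 0.333, the smallest that 2 against 2 allows. The median tile fell further in proportion, from 8.57% and 8.93% to 3.23% and 3.13%, and the upper quartile went from 63.2% in both serum libraries to 42.9% in both at 96 h.

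The shape of the distribution changed at its upper end. Tiles of 80% or more made up 11.3% and 11.2% of the tiles in serum, and 2.53% and 2.36% at 96 h. Tiles of 40% or more went from 37.2% in both serum libraries to 26.99% and 27.1%. The unmethylated end gained tiles. Those under 10% went from 50.8% and 50.6% to 56.8% and 56.7%. No methylated call was seen in any of the 4 libraries in 3426 tiles.

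**Figure D1:**
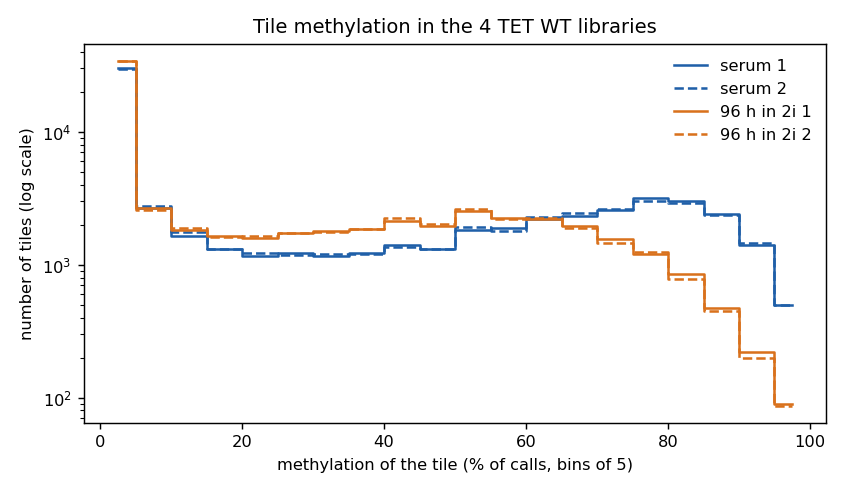
Number of tiles (log scale) by methylation of the tile in percent of calls, in bins of 5, for the 2 serum libraries (blue) and the 2 libraries of 96 h in 2i (orange) of TET WT. The curves of replicates run together, and the 96 h curves lie below the serum curves at the highest levels, where tiles of 80% or more fell from 11.3% and 11.2% of tiles to 2.53% and 2.36%.

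Tile by tile, 10017 of the 64515 tiles were called lower at 96 h (15.5%) and 0 were called higher (0%). The test was a quasi-binomial fit of the methylated and unmethylated calls with limma-moderated dispersions, and a tile was called where the adjusted p (Benjamini-Hochberg) was under 0.05 with the group means 20 points or more apart. At an unadjusted p under 0.05, 23184 tiles were lower and 462 higher. Only 4 tiles stood higher by 20 points or more on their means, none of them called. Both 96 h libraries lay below both serum libraries in 34410 tiles (53.3%) and above both in 1996 (3.09%). Limma on log2 ratios of the calls called 1757 tiles lower, all of them among the 10017, and 0 higher, with 770 higher at an unadjusted p under 0.05. When the common spread was estimated from all tiles, nearly unmethylated ones included, no tile was called (20820 lower at an unadjusted p under 0.05). The main fit estimated it from a part of the tiles, a choice made after that result. Leaving out 1 library moved the count of lower tiles to 4503 without 96 h replicate 1, 4532 without 96 h replicate 2, 6519 without serum replicate 2 and 6589 without serum replicate 1.

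The calls lay where serum methylation was high. Among the 24050 tiles of 40% or more in serum, 8974 (37.3%) were called lower, against 1043 (2.58%) of the 40465 tiles under 40%. A tile under 20% could not reach the difference of 20 points. In the 24050 tiles the mean was lower at 96 h in 23285 (96.8%), and both 96 h libraries lay below both serum libraries in 19481 (81.0%). The median change there was -17.9 points, with the middle 90% of tiles between -37.5 and -2.03 points.

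To set loss against serum level without choosing and measuring in the same library, tiles were classed in one serum library and their serum level was read in the other, and the reverse. Tiles of 70% or more read 79.5% in the other serum library and 62.5% and 62.1% in the 96 h libraries. They kept 78.3% of their serum level (range of the 4 readings 78.0% to 78.6%). Tiles of 40 to 70% read 57.7% in serum and 38.6% in each 96 h library, and kept 66.8%. Tiles of 10 to 40% went from 24.97% to 12.9% and 13.0% and kept 51.7%. The lowest class, under 10%, went from 1.55% to 0.749% and 0.687%, with mitochondrial calls at 0.375% or less, and its kept share ranged from 42.4% to 50.8%. Over all tiles of 40% or more, 73.9% ± 0.18 of the serum level was kept (SD over 4 readings, which share libraries).

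In finer bins of 5 points the share kept rose with serum level at every step from the bin of 5 to 10% upwards. It was 40.9% in that bin, 58.7% in the bin of 40 to 45%, 73.7% in the bin of 70 to 75% and 86.2% in the bin of 95% or more. In points the loss peaked in the middle. It was -4.32 in the bin of 5 to 10%, -19.8 in the bin of 60 to 65% and -12.3 in the highest bin. From 10% upwards the spread of the 4 readings was smaller than the step to the next bin.

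**Figure D2:**
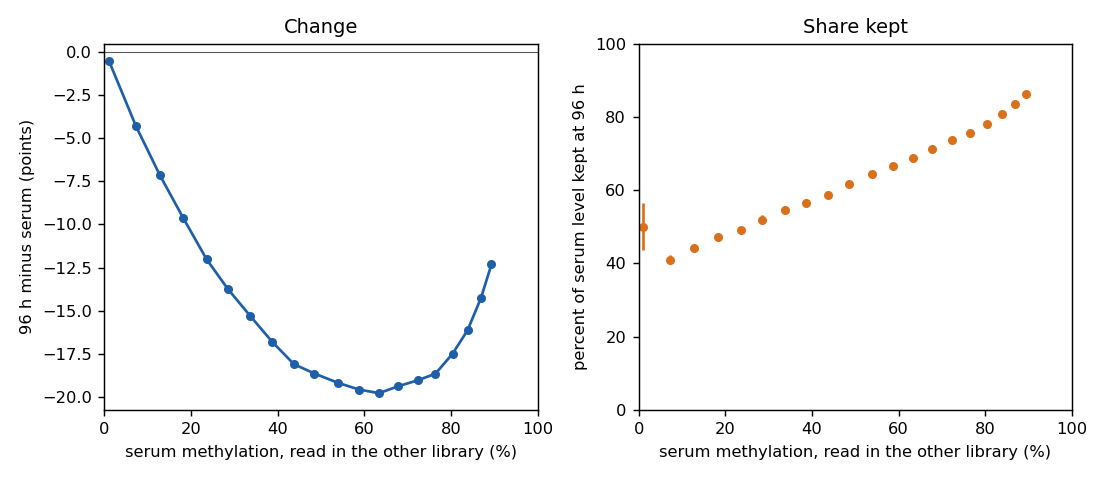
Change from serum to 96 h in percentage points (left) and percent of the serum level kept at 96 h (right) against serum methylation in percent, for TET WT tiles in 20 bins of 5 points, chosen in one serum library and read in the other. Points are means and vertical lines on the right the range of the 4 readings. The loss was largest, -19.8 points, in the bin of 60 to 65%, and the share kept was 49.9% in the lowest bin and rose from 40.9% in the bin of 5 to 10% to 86.2% in the highest.

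CpG density as RRBS reads it was described by the number of cytosine positions that the 4 libraries shared in a tile. In the quartile with the fewest positions (4 or fewer, 18316 tiles) the mean was 53.5% in serum and 38.2% at 96 h, and 28.6% of tiles were called lower. In the quartile with the most (19 or more, 15830 tiles) it was 1.19% and 0.735%, and 0.114% were called. The middle quartiles lay between, at 43.2% and 17.5% in serum. At like serum levels the share kept varied less. For tiles of 40 to 70% in serum it was 65.9%, 67.0%, 68.9% and 71.7% from the fewest to the most positions, the last on 40 tiles. For tiles of 70% or more it was 77.7%, 78.3%, 80.9% and 80.3%, the last on 18 tiles. Median calls per tile rose along the same order, from 41 to 399, so density and depth cannot be told apart.

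The 19 autosomes lost methylation to a like extent. The share of serum kept by tiles of 40% or more ran from 71.6% on chromosome 11 to 76.9% on chromosome 3, with a median of 73.9% and an SD of 1.28 over chromosomes. The mean change over all tiles ran from -10.3 to -7.27 points. On chromosome X, which the selection left out, 1064 tiles met the same limits. They went from 21.2% and 21.3% to 16.7% and 16.4%. Those of 40% or more, 277 or 276 by the serum library that chose them, kept 81.6% (80.8% to 82.3% over 4 readings), above every autosome. Serum level was not matched between X and the autosomes, and its part was not tested.

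The share kept was more alike between adjacent tiles than between tiles farther apart, and only weakly alike beyond adjacent tiles. Among tiles of 40% or more in serum, the share kept correlated at r = 0.457 between adjacent tiles (1375 pairs), 0.237 at 1000 bp, 0.130 at 1500 to 5000 bp, 0.0695 at 5500 to 10000 bp and 0.0393 at 10500 to 50000 bp. Reads that cross a tile border may enter the value of adjacent tiles, and a like serum level may enter all of them. Neither was tested. The values are descriptions across tiles and carry no p. The tile next to one that kept 80% or more of its serum level also did so in 55.6% of pairs, against 28.7% next to other tiles.

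At 96 h, 8644 of the 24050 tiles of 40% or more in serum (35.9%) held at least 80% of that level, 236 (0.981%) kept 20% or less, and 15170 lay between. The values that set these classes are no result. The classes were therefore read again in libraries that did not set them. Where tiles were chosen as kept in the replicate 1 libraries and read in the replicate 2 libraries, they kept 81.5% and the other tiles 68.5%. In reverse the values were 82.0% and 68.6%. The choice held in both pairs for 55.7% of the tiles chosen in replicates 1 and 56.6% of those chosen in replicates 2.

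The classes were also read at 48 h and 168 h, time points that did not set them. Among tiles covered in all 7 TET WT libraries, the 7410 kept tiles stood at 74.7% and 74.6% in the 48 h libraries and at 49.1% in the 168 h library, from 74.4% in serum. The 13172 tiles between stood at 62.8% and 62.6% at 48 h and at 27.4% at 168 h, from 67.3%. The 201 tiles that lost most stood at 26.9% and 29.0% at 48 h and at 3.21% at 168 h, from 51.8%. At 168 h, 1717 of the 7410 kept tiles (23.2%) still held 80% or more of their serum level, against 209 of the 13172 (1.59%) and 0 of the 201. As a share of the serum mean, the kept tiles held 100.4% at 48 h and 66.1% at 168 h, the tiles between 93.1% and 40.6%, and the tiles that lost most 54.0% and 6.196%. The serum libraries enter both the choice and these shares, and the classes already stood in this order in serum, at 74.4%, 67.3% and 51.8%.

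**Figure D3:**
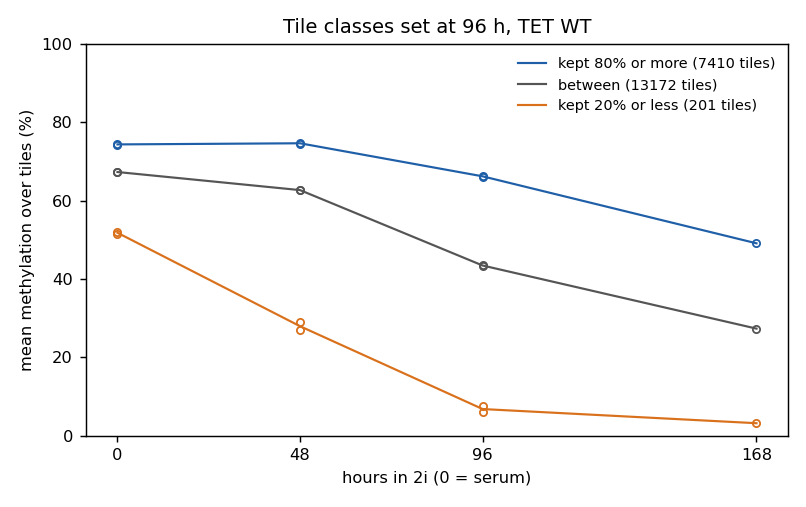
Mean methylation in percent over tiles of 40% or more in TET WT serum, by hours in 2i (0 is serum), for tiles that kept 80% or more of serum at 96 h (blue), 20% or less (orange) and those between (grey). Open circles are single libraries and lines join group means. Serum and 96 h set the classes. At 48 h the kept tiles stood at 74.7% and 74.6% and the tiles that lost most at 26.9% and 29.0%.

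On the mean over tiles, most of the loss came after 48 h. Tiles of 40% or more in serum, chosen and read in different serum libraries, kept 96.0% at 48 h (95.9% to 96.2%), 73.8% at 96 h (73.6% to 74.1%) and 50.3% in the single library of 168 h. In the quasi-binomial fit of the 7 TET WT libraries, 5349 of 59427 tiles were called lower at 96 h than at 48 h (9%) and 3 higher (0.00505%). The mean change over these tiles was -6.60 points. The count was 2589 without 48 h replicate 2, 3409 without 96 h replicate 2 and 3506 without 96 h replicate 1.

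The 5 deepest falls, by a rule that asked for 50 or more calls in each of the 4 libraries, left the tiles at 0% to 21.1% in single 96 h libraries. No gene annotation of the build NCBIM37 was used here, so the tiles are given by position and no gene is named. The first, chr7:139529001-139529500, had fallen part of the way at 48 h, to 52.8% and 37.3%, from 69.8% and 82.8% in serum. It stood at 5.33% and 9.09% at 96 h and 3.13% at 168 h, a change of -69.1 points to 96 h (quasi-binomial adjusted p 5.60e-17). Its libraries of serum and 96 h were far apart, while the replicates of 48 h were the most spread.

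The second, chr14:121634001-121634500, held 72.3% and 79.1% in serum, 35.7% and 40.2% at 48 h and 4.88% and 8.97% at 96 h, with 191 to 303 calls in serum and 96 h libraries. Its change was -68.7 points (quasi-binomial adjusted p 2.95e-34). All 10 of its positions with 5 or more calls stood at 52.9% or more in both serum libraries and at 33.3% or less in both 96 h libraries.

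The third, chr9:67236001-67236500, held 85.3% and 85.0% in serum and 37.3% and 35.9% at 48 h, then 16.7% and 21.1% at 96 h and 15.7% at 168 h (change to 96 h -66.2 points, quasi-binomial adjusted p 4.52e-20). Its larger step came before 48 h. On the library means this was also so in the second and the fifth and, by little, in the fourth. The fourth, chr2:132475501-132476000, went from 69.4% and 77.0% in serum to 41.3% and 40.8% at 48 h. It stood at 5.56% and 14.5% at 96 h (change from serum -63.2 points, quasi-binomial adjusted p 2.79e-13). The fifth, chr6:34817001-34817500, went from 67.3% and 67.5% in serum to 36% and 28.6% at 48 h. It stood at 0% and 9.33% at 96 h (change from serum -62.7 points, quasi-binomial adjusted p 1.91e-13). The 0 in the first 96 h library rests on 60 calls, which allows up to 5%. Serum and 96 h did not overlap in any of the 5 tiles, as the choice of the deepest falls fixes.

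In E14, which did not choose these tiles, all 5 also fell between serum and 96 h. The first went from 88.7% and 89.1% to 30.6% and 39.6%, the second from 70.3% and 78.6% to 13.99% and 10.6%, and the third from 88.5% and 94.2% to 24.6% and 18.8%. Falls were general in E14, where even the 7898 tiles of the kept class changed by -13.4 points on the mean. A fall in all 5 thus says little. The 5 tiles were chosen for their fall in TET WT. In TET TKO, which stood higher in serum over all tiles, the first held 81.8% and 74.1% at 96 h, the second 64.4% and 75%, and the third 73.6% and 70%, against TKO serum levels of 85.7% to 98.6% in these 3. The fourth went from 93.4% and 80% to 78.3% and 77.3% there. By the interaction test of genotype and time over all shared tiles, the difference of losses passed in the first (-55.9 points, quasi-binomial adjusted p 0.0249). With limma the first did not pass (adjusted p 0.533). The difference was -54.2 points in the fourth (quasi-binomial adjusted p 0.0769), which did not pass. It was -41.2 points in both the second and the third, which did not pass either (quasi-binomial adjusted p 0.593 and 0.748). The test compares odds of methylation, not points. The fifth was not among the tiles tested in all 8 libraries. Over the 4493 tiles called lower in TET WT and covered in TET TKO, the mean change was -27.6 points in TET WT, which the calls fix, and -26.7 in TET TKO, where 75.1% were lower by 20 points or more. Over the 276 that fell by 40 points or more in TET WT the means were -46.0, which that choice fixes, and -29.3. Over all 10480 tiles of 40% or more in TET WT serum, also covered in TET TKO, they were -17.96 and -24.5, and 66.7% were lower by 20 points or more in TET TKO.

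At the other end, 5089 tiles had 60% or more in each serum library and 50 or more calls in each of the 4. The 5 with the smallest change are shown as the tiles that stayed. They were chosen for no change, so no test is given. The tile chr5:23210501-23211000 held 85.1% and 89.0% in serum and 86.6% and 87.5% at 96 h, and chr8:33963501-33964000 held 64.3% and 71.3% and then 66.1% and 69.4%. The tile chr19:5665001-5665500 held 77.8% and 75% and then 74.0% and 78.7%. In the single 168 h library these 3 stood at 75% (on 24 calls), 55.7% and 60.3%. All 5 tiles lay below both of their 96 h libraries there.

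The tile chr15:16111501-16112000 stayed highest. It held 92.9% and 96.2% in serum, 98.1% and 91.0% at 96 h and 90% at 168 h, with 78 to 126 calls in serum and 96 h libraries. It was as high in E14, at 90.3% and 96.2% in serum and 96.9% and 90.7% at 96 h. The last, chr9:79751001-79751500, held 92.9% and 87.2% in serum, 88.2% and 92.1% at 96 h and 80.8% at 168 h. It was lower in E14, at 55.6% and 62.5% in serum and 62.5% and 38.1% at 96 h. In E14 the tile on chr5 went from 94.1% and 89.8% to 79.7% and 81.1%. The tile on chr19 went from 92.8% and 91.0% to 81.9% and 75.8% there. That on chr8 held 42.4% and 39.1% in E14 serum and 32.3% and 44.4% at 96 h.

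**Figure D4:**
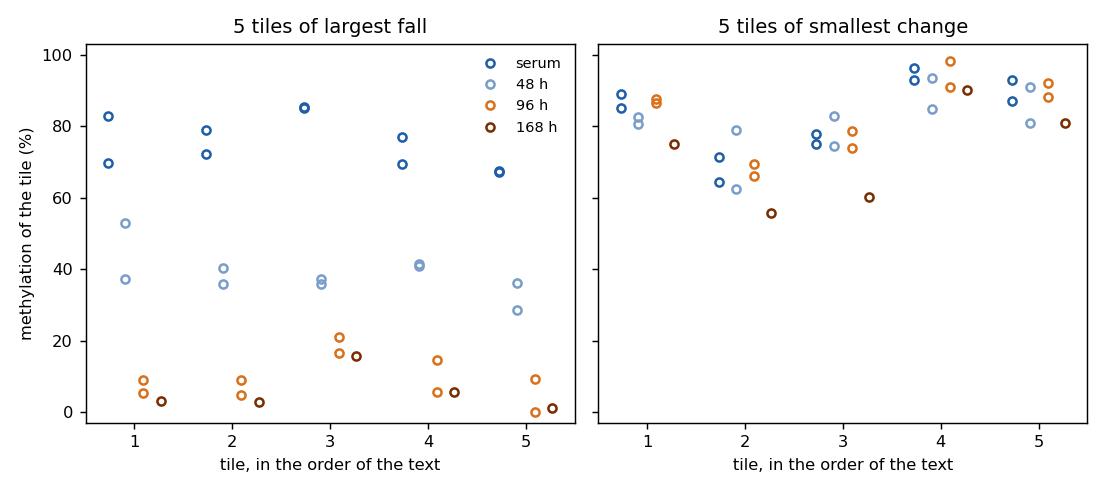
Methylation in percent of calls of the 5 TET WT tiles with the largest fall (left) and the 5 with the smallest change (right), in the order of the text. Each circle is 1 library of serum, 48 h, 96 h or 168 h in 2i. On the left 48 h lies between serum and 96 h in every tile. On the right the means of serum and 96 h are close, as the choice fixes, while single 48 h libraries lie farther off (79.1% in the second tile and 84.7% in the fourth), and the 168 h library lies between 55.7% and 90%.

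Whether the loss differed between TET WT and TET TKO was tested as the difference of the losses, with genotype, time and their interaction in 1 fit. Each genotype goes under 1 line label, so genotype and line cannot be told apart. The calls have no separate state for hydroxymethylcytosine, the oxidised form that TET enzymes make. By mass spectrometry the study found it lost in the TKO cells, and its share of these calls was not tested. Over the 43271 tiles covered in all 8 libraries, TET WT went from 19.8% and 19.9% in serum to 14.1% and 13.96%, a change of -5.84 points. TET TKO went from 28.0% and 28.1% to 19.5% and 19.12%, a change of -8.80. The TKO thus lost 2.96 points more, a difference larger than the largest gap between replicates (0.328), and it started higher. As a share of serum, the means of TET WT kept 70.6% and those of TET TKO 68.7%.

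Few single tiles passed that test. TET WT lost more than TET TKO in 7 tiles (0.0162%) and less in 75 (0.173%), by the quasi-binomial interaction with an adjusted p under 0.05 and a difference of 20 points or more. Limma called 0 tiles, with 917 lost more and 2705 lost less at an unadjusted p under 0.05, and the spread estimated from all tiles also gave 0. On the percent scale in place of the logit scale, 21 tiles lost more and 222 less, an alternative chosen after seeing the data. It used a normal test with the common spread alone, so scale and test changed together. With 50 calls per tile, 0 of 22153 tiles lost more and 6 less. With 10 calls per tile, 10 of 62638 lost more and 95 less. Leaving out 1 library moved the total of 82, from 16 without TET TKO serum replicate 1 to 137 without TET TKO 96 h replicate 2. The total was 26 without TET WT 96 h replicate 1, 30 without 96 h replicate 2, 38 without serum replicate 1 and 52 without serum replicate 2 of TET WT, 26 without TET TKO serum replicate 2 and 55 without TET TKO 96 h replicate 1.

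In the 7 tiles, TET WT went from a mean of 48.6% to 6.29% and TET TKO from 60.5% to 51.1%. The first is the tile of the deepest fall, chr7:139529001-139529500 (difference of losses -55.9 points, quasi-binomial adjusted p 0.0249). The second, chr6:70842501-70843000, went from 64.7% and 62.2% to 6.67% and 1.67% in TET WT, and from 75.9% and 71.1% to 55.2% and 66.7% in TET TKO (-46.7 points, quasi-binomial adjusted p 0.0143). The third, chr7:35453001-35453500, went from 63.5% and 58.3% to 14.1% and 10.9% in TET WT and from 68.9% and 65.8% to 56.2% and 47.8% in TET TKO (-33.1 points, quasi-binomial adjusted p 0.0117). The tiles were chosen from these libraries for a larger loss in TET WT, so their levels are a description. None of these named tiles passed with limma (adjusted p 0.533 in each). Each also lost its call with at least 1 library left out.

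The 75 tiles were chosen from the same libraries for a smaller loss in TET WT, which largely fixes their levels. TET WT went from a mean of 58.0% to 55.2% and TET TKO from 87.6% to 49.4%. In 23 of them TET WT stood higher at 96 h than in serum, and in 15 it stood under 40% in serum. The tile chr6:35208501-35209000 held 18.2% and 24.3% in TET WT serum and 32.3% and 29.3% at 96 h, against 82.0% and 73.8% and then 36.4% and 21.2% in TET TKO (difference of losses 58.7 points, quasi-binomial adjusted p 0.00666). The tile chr10:79823001-79823500 held 51.2% and 60% and then 69.7% and 68.1% in TET WT, against 92.7% and 87.5% and then 59.0% and 32.1% in TET TKO (57.8 points, quasi-binomial adjusted p 0.0178). The tile chr6:88843001-88843500 held 6.67% and 8.70% and then 17.6% and 27.3%, against 57.1% and 63.9% and then 12.5% and 27.6% in TET TKO (55.3 points, quasi-binomial adjusted p 0.00666). None of these named tiles passed with limma (adjusted p 0.533 in each), and each lost its call with at least 1 library left out.

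The classes of TET WT tiles kept their order in both other lines, which did not set them. In E14 the kept tiles went from 84.8% in serum to 71.3% and 71.5% at 96 h, 84.2% of their level. The tiles between kept 71.9% and the 213 that lost most in TET WT kept 31.8%. In TET TKO the shares lay closer together: 74.6% in 3793 kept tiles, 68.8% in 6607 tiles between and 62.1% in the 80 that lost most. Those 80 tiles stood at 81.3% and 80.9% in TKO serum and at 50.1% and 50.6% at 96 h. The classes already stood in this order in the serum means of both lines. These were 84.8%, 79.0% and 62.5% in E14 and 85.5%, 83.6% and 81.1% in TET TKO. The part of serum level in the shares kept was not tested.

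Against E14, 0 of 61857 tiles lost more in TET WT (0%) and 3 lost less (0.00485%) by the same interaction test. At an unadjusted p under 0.05 the quasi-binomial fit gave 1130 and 3125 tiles, and limma, which called 0, gave 992 and 2935. On the percent scale, by the same normal test as for TET TKO, 32 lost more and 271 less. The total of 3 was 0 without TET WT serum replicate 2 and without TET WT 96 h replicate 2, and 1 without E14 serum replicate 2. TET WT changed by -8.40 points over these tiles and E14 by -10.1, a difference of 1.66 points that exceeded the largest replicate gap of 0.652. As a share of serum the order was the other way, with 70.7% kept by the means of TET WT and 71.8% by those of E14. E14 also started higher, at 35.4% and 36.1% against 28.6% and 28.7%. Line and genetic background cannot be told apart here.

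Read by each line's own serum level over 42890 tiles shared by the 3 lines, TET WT kept 78.7% in tiles of 70% or more, E14 77.9% and TET TKO 70.6%. The 4 readings ran from 78.5% to 79.1% in TET WT and from 69.99% to 71.2% in TET TKO and did not overlap. In tiles of 40 to 70% the values were 67.3%, 63.2% and 66.1%. In tiles of 10 to 40% TET WT kept 52.6%, E14 50.1% and TET TKO 62.7%. The tiles in a class differ between lines, since each line set its own, and these shares carry no test.

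**Figure D5:**
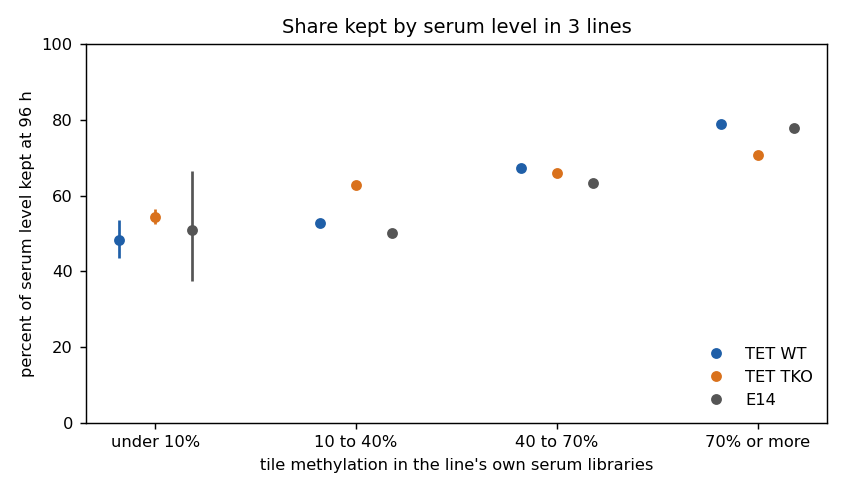
Percent of the serum level kept at 96 h in TET WT (blue), TET TKO (orange) and E14 (grey), by class of tile methylation in the line's own serum libraries, over 42890 shared tiles. Points are means and vertical lines the range of 4 readings, in which tiles were chosen in one serum library and read in the other. In tiles of 70% or more TET WT kept 78.7% and TET TKO 70.6%.

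A last readout came from E14 ChIP followed by bisulfite sequencing (ChIP-BS), which reads methylation in whole-genome input DNA and in DNA bound to H3K9me2, a histone mark that UHRF1 can bind. In serum input, the tiles that TET WT kept held 83.5% and 81.7% methylated calls, the tiles between 76.2% and 74.7% and the tiles that lost most 63.6% and 62.6%. The 2i samples of ChIP-BS carry no time in the labels, and the study describes them as long-term 2i cells, so their time in 2i is not the 96 h at which the classes were set. In 2i input they held 51.6% and 51.7%, 33.5% and 33.6%, and 13.99% and 14.2%. The 3 classes did not overlap in either medium. The library pairs held 38268 or more input calls in the kept tiles and 640 to 914 in the 236 that lost most.

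H3K9me2 around these tiles, as log2 of bound over input calls in windows of 10 kb, was close between kept tiles and tiles between in serum and apart in 2i. In serum the kept tiles stood at -0.20 and -0.21, the tiles between at -0.28 and -0.26 and the tiles that lost most at -0.45 and -0.42. In 2i the values were -0.10 and -0.16, -0.63 and -0.74, and -1.36 and -1.45. Tiles of 10 to 40% in TET WT serum stood at -1.01 and -0.997 in serum and -1.34 and -1.41 in 2i, and tiles under 10% at -1.85 and -1.84 and then -2.14 and -2.27. In 2i the tiles that lost most thus lay near tiles of 10 to 40%. The bound libraries held 234 and 188 calls inside the tiles that lost most in 2i. The 2 bound libraries of a medium were set against the same pooled input, and no test was made. Serum methylation differed between the classes too, and its part in this order was not tested.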

How the data were processed

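RRBS of TET WT in serum and at 96 h in 2i was compared (2 libraries each), with 48 h and 168 h of the line, TET TKO and E14 as further readouts. The authors deposited, per cytosine position, counts of calls read as methylated and as unmethylated (Bismark coverage layout). Mapping used Bismark with NCBIM37 according to the study, and the submitters' processing notes list Bismark 0.12.3, Trim Galore 0.3.5 and Bowtie2. For duplicate removal and call filters, nothing is given in the sources used here. RRBS reads carry no molecular identifiers, so PCR copies can count as separate calls, and intervals cover counting error only. A position of chromosome 1 at 197193419 set the build to NCBIM37. The reference tables here are of GRCm38, so no gene was assigned and no sequence printed.

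Counts were summed in 500-bp tiles (Python 3.11.15, pandas 2.3.3) and tested per tile with a quasi-binomial logistic fit (R 4.3.3). Dispersions were moderated with squeezeVar of limma 3.58.1, and p-values were adjusted by Benjamini-Hochberg over all tiles. The prior was estimated from 30235 tiles with 5 or more expected methylated and unmethylated calls per library (dispersion 1.32). It weighs as 109 degrees of freedom against the 2 of a tile's own libraries, so a tile's own spread hardly enters its p-value. This choice was made after a prior from all tiles, many near 0%, gave no calls. ChIP-BS positions of over 20 calls were left out. Functions were tested on simulated data. The members and lists were chosen with earlier results of these data known. Named tiles were the 5 largest falls, the 5 smallest changes among tiles of 60% or more in both serum libraries (both with 50 or more calls per library), called rises (none), and the 3 largest differences of loss from TET TKO each way.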

Additional observations from a re-analysis of the deposited data

Results flagged for a closer look

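The loss to 96 h differed between lines in single tiles by a test of the difference itself. Against TET TKO, TET WT lost more in 7 tiles and less in 75 of 43271. Against E14, it lost more in 0 tiles and less in 3 of 61857. In the 3 tiles TET WT stood higher at 96 h than in serum by 1.85 to 6.42 points on the means, while E14 changed by -18.7 to -41.6 points. Limma on log2 ratios called none of these tiles. Groups of 2 libraries were too small to look for a library far from the others.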

How the results depend on the processing

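The mean change kept its sign under every alternative run, from -10.1 points (1000-bp tiles) to -2.69 (share of all calls). Lower tiles numbered 3407 of 38394 with 50 calls per tile, 4679 of 46502 with 5 positions, 16428 with no minimum difference, 1757 with limma and 0 with the dispersion prior from all tiles. Leaving out 1 library gave 4503 to 6589. Higher tiles numbered 4 with 10 calls, 1 in 1000-bp tiles, 13 with a difference of 10 points, 142 with no minimum difference and 0 to 3 with 1 library left out. The percent of serum kept was 73.0 in tiles of 30% or more, 76.4 in tiles of 60% or more and 74.2 with 50 calls. Kept tiles numbered 14522 at 70% kept, 3377 at 90% kept and 2826 of 7925 with 50 calls. Tiles that differed from TET TKO numbered 6 with 50 calls, 0 with limma, 0 with the prior from all tiles, 243 on the percent scale and 16 to 137 with 1 library left out. For E14 these were 0 with limma, 0 with the prior from all tiles, 303 on the percent scale and 0 to 4 with 1 library left out. Tiles lower than at 48 h numbered 1571 with 50 calls and 2589 to 5347 with 1 library left out. The percent-scale alternative, a normal test with the common spread alone, was chosen after seeing the data. So was the prior of the main fits, which was taken up after the prior from all tiles gave no calls. For named tiles that were called, the sign held in all 152 recomputed values and the call in 112. The 5 deepest falls lost their call only with the prior from all tiles. Each tile named for a difference of loss from TET TKO lost that call with limma and with the prior from all tiles. It also did so with at least 1 library left out. The 5 tiles of smallest change were never called, which their choice for a change near 0 largely fixes. Their 75 recomputed values ran from -6.35 to 3.64 points. The sign changed in 13, which says little for changes chosen to be near 0. Replicate differences in serum and at 96 h were nearly uncorrelated across tiles (r = 0.00557). This check cannot decide whether libraries of the same replicate number were paired. With the replicate number as a block 9715 tiles were lower and 0 higher, 62 differed from TET TKO, 3 from E14 and 5401 were lower than at 48 h. What moved these counts was not tested. Tiles with few calls limit precision: at 20 calls 1 call is 5 points.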
